A study of Homo sapiens with 2 samples.

Results

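The CD1 genes are a cluster of 5 genes on human chromosome 1, running from CD1D and CD1A through CD1B, whose RefSeq span also holds CD1C, to CD1E, and their open chromatin was compared between a T cell line and a kidney line. Peaks were taken from the gene bodies and 50 kb on either side. The 5 windows merge into 1 region of 280 kb, on chromosome 1 from 158128030 to 158407553 (GRCh38). In this region lay 13 of the 59631 peaks of the line J76 and 6 of the 85597 peaks of the line 293T, around 5 of 19974 protein-coding genes. J76 derives from Jurkat leukemia cells and has lost the alpha and beta chains of the receptor for antigen, and its label names an acute T-lymphoblastic leukemia. 293T, called T293 in the sample labels, is an embryonic kidney line that carries the SV40 large T antigen. Cells were untreated as far as the labels say, and 1 ATAC-seq library was made per line with a transposase purified in the submitters' laboratory. The assay marks open chromatin by the places where this enzyme can insert sequencing adapters. There were no replicates, so differences between the lines were described without a test. The lists give no read counts, so depth is unknown and a missing peak does not show that a site was closed.

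CD1 proteins resemble MHC class I molecules but hold lipids in place of peptides and show them to T cells. CD1A, CD1B and CD1C are found on cortical thymocytes and on dendritic cells, and CD1A is a marker used to class T cell leukemias by thymic stage. CD1D presents lipids to natural killer T cells and is found on a wider range of cells, while CD1E stays inside the cell and helps to load lipids on the other CD1 proteins. All of them pair with beta-2 microglobulin.

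Start windows of 4 genes are printed because the lines differed in which of them carried a peak. Each runs from 250 bases before to 50 after a RefSeq start (GRCh38.p14, plus strand). The CD1A window was overlapped by a J76 peak only, the CD1D window by a peak of both lines, and the CD1C and CD1E windows by none. Capitals mark matches, on either strand, to short letter motifs. These were AGATAA, which factors of the GATA family bind, TGTGGT for the RUNX family, AGGAAG for the ETS family, CTTTGA for the TCF/LEF family and CAGCTG, an E-box. The TATA box TATAAA was searched as well, as was the GC box written GGGCGG, and they had no match in these 4 windows. No capital run belongs to more than 1 motif.
CD1A, chr1:158248086-158248385, plus strand: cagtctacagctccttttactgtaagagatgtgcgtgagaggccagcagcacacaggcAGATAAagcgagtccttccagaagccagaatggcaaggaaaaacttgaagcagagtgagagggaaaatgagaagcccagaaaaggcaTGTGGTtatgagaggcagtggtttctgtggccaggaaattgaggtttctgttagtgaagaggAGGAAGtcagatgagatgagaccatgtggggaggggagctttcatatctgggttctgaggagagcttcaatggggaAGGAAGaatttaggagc
CD1D, chr1:158180645-158180944, plus strand: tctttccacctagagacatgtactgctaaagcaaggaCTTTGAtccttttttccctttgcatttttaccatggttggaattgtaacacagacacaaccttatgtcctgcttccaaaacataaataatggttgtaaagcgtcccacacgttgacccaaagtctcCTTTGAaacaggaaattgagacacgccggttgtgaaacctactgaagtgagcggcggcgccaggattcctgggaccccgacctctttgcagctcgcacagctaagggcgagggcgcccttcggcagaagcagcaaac
CD1C, chr1:158289673-158289972, plus strand: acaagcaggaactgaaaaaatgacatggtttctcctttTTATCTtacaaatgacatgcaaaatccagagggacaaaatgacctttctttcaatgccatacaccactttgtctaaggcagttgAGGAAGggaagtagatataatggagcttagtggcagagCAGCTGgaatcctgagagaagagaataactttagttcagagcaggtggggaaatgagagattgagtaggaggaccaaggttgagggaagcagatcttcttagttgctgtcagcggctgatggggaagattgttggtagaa
CD1E, chr1:158353644-158353943, plus strand: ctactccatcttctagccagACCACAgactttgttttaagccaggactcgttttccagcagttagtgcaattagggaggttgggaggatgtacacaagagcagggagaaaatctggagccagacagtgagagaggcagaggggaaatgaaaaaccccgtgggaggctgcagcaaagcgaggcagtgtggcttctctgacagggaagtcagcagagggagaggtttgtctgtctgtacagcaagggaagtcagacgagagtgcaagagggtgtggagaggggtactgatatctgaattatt

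The CD1A window held 1 GATA match at base 59, 1 RUNX match at base 146 and 2 ETS matches, counted from the first base printed. Of 34789 RefSeq start windows, 10.4% held the GATA letters, 13.1% the RUNX letters and 33.7% the ETS letters, and 0.618% held all of them. All of them stood in 1.06% of windows overlapped by a J76 peak only and in 1.04% of windows overlapped in neither line. The CD1D window held 2 TCF/LEF matches, against 12.9% of all windows with any and 1.30% with at least 2. The CD1C window held 1 GATA match at base 39, 1 ETS match at base 123 and 1 E-box at base 161, and the CD1E window 1 RUNX match at base 21. The E-box letters stood in 17.9% of all windows. These matches describe the letters only. In the printed windows CD1A had 2 CpG dinucleotides, CD1C 1, CD1E 4 and CD1D 12, and the median over all windows was 14. CD1A and CD1D each have a further start window, not printed, that no peak overlapped. That of CD1D (start 158179947) had 2 CpG, the same as the printed CD1A window, and 1 ETS match, and that of CD1A (start 158254424) had 0 CpG and no match. Windows overlapped in both lines had a median of 28 CpG, those overlapped in J76 only 10, and those overlapped in neither 4. A count of 2 or fewer was found in 9.53% of the windows overlapped in J76 only, 8.98% of those in 293T only, 0.570% of those in both lines and 36.1% of those in neither, and in 18.2% of all windows.

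The region divided into a CD1D side with peaks in both lines and a side from CD1A to CD1E where peaks were nearly all from J76. All 10 J76-only peaks lay between position 158246770, just before CD1A, and the upper end of the region. In 293T, 5 of the 6 peaks lay at or around CD1D, and the other lay 4.39 kb before CD1E. A 293T peak was overlapped by 3 of the 13 J76 peaks (23.1%, exact binomial 95% interval 5.04 to 53.8). Of the 58730 J76 peaks on the autosomes and chromosome X, 52.3% did so. A J76 peak was overlapped by 3 of the 6 293T peaks (50%, 11.8 to 88.2). Of the 84951 293T peaks on these chromosomes, 36% did so. Both intervals hold the share over these chromosomes. They treat the peaks as independent draws, although 4 of the J76 peaks lay within 7283 bp at CD1A. The intervals were therefore not read as a test, and no difference from these shares was concluded. The intervals cover counting error only. At a minimum −log10 q of 10 there were 8 J76 and 3 293T peaks. With flanks of 100 kb, which take in part of the KIRREL1 gene body, there were 17 and 13.

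**Figure D1:**
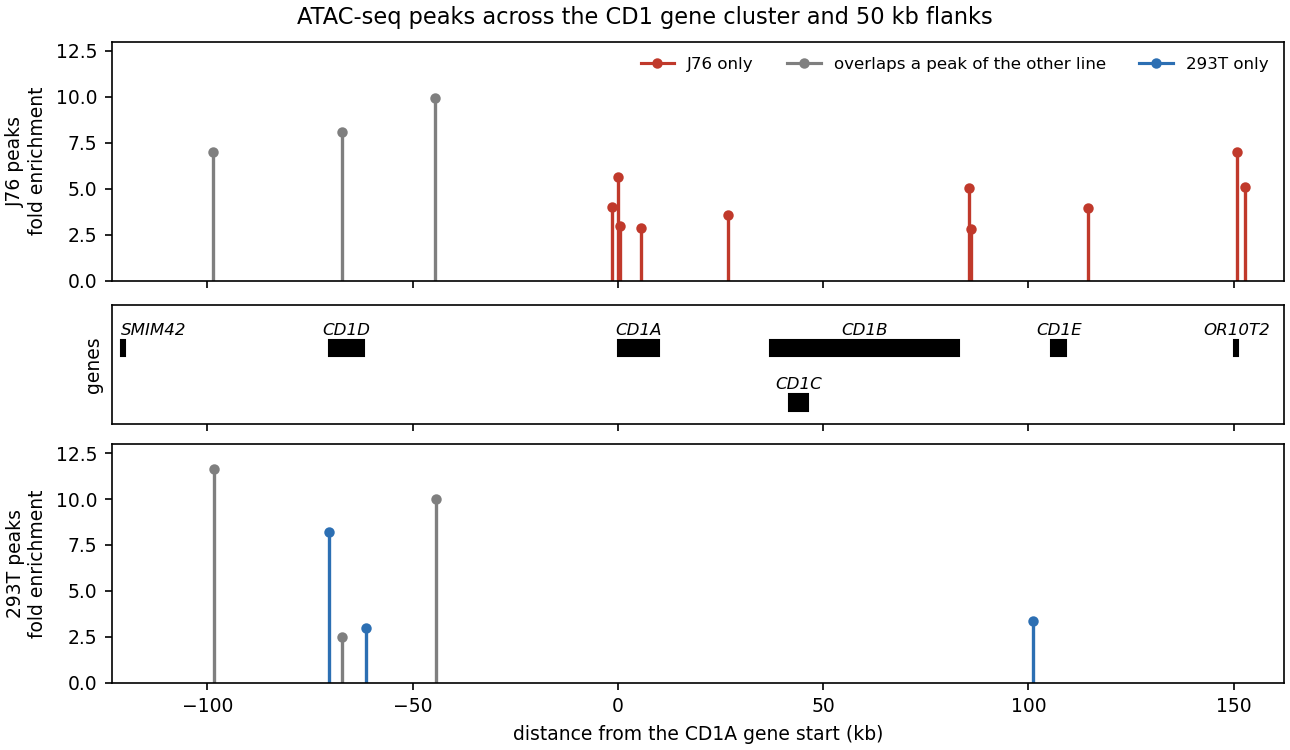
Peaks of J76 (top) and 293T (bottom) in the CD1 region, with the RefSeq gene bodies between them. The x axis is the distance from the CD1A gene start in kb, each line stands at a peak summit, and its height is the authors' fold enrichment (linear, no unit). Peaks of both lines stand on the CD1D side, and on the CD1A to CD1E side there are 10 J76-only peaks and 1 293T peak.

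CD1D was the only one of the 4 members with a RefSeq start entry that had a peak of both lines at a start. RefSeq gives starts of CD1D at 158179947 and 158180895. At the second, J76 had a peak from 158180686 to 158181433 with a fold enrichment of 8.10 and a −log10 q of 41.7, and 293T had a peak from 158180885 to 158181378 with a fold of 2.52 and a −log10 q of 6.12. Folds and −log10 q are the authors' values for each peak, so they rank peaks within a list and do not measure a difference between the lines. By −log10 q, the J76 peak stood above 81.4% of the peaks in its list, and the 293T peak above 34.6% of those in its own. The summits lay 81 bp apart. A second 293T peak, from 158177033 to 158178286, covered the lower end of the CD1D gene at 158178030 and the end of the neighbouring pseudogene ELL2P1. Its fold was 8.23 and its −log10 q 78.8, the highest −log10 q among the 6 293T peaks of the region, and J76 had no peak there. ELL2P1 is a copy of ELL2, and the sources used here do not say how reads with several matching places were treated. A weak 293T peak followed just past the upper end of CD1D, from 158186622 to 158186963 (fold 2.96, −log10 q 2.86), also with none in J76.

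The other peaks found in both lines flanked CD1D at a distance. On the lower side, within the non-coding RNA gene LOC105371460, a J76 peak from 158149601 to 158150055 had a fold of 7.03 and the overlapping 293T peak, from 158149111 to 158150246, a fold of 11.6. On the upper side, 17.2 kb past CD1D and in no annotated gene, the J76 peak from 158203606 to 158204462 had a fold of 9.96 and the 293T peak from 158203643 to 158204554 a fold of 10. No other J76 peak of the region had a higher fold than this one. Summits of the pairs were 51 bp and 106 bp apart.

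CD1A had the densest group of J76 peaks. Its first start at 158248336 lay 7 bp from the summit of a J76 peak from 158247982 to 158248667, with a fold of 5.66 and a −log10 q of 25.9, and that peak stood above 73.1% of the J76 list by −log10 q. A peak before it, from 158246770 to 158247033, had a fold of 4.03, and a peak inside the gene, from 158248744 to 158249075, a fold of 2.98. The fourth, from 158253845 to 158254052, had a fold of 2.87 and a −log10 q of 3.54, and its summit at 158253884 lay before the second CD1A start at 158254424. These 4 peaks fell within 7283 bp and had no counterpart in 293T, whose nearest peak was 43.8 kb from the gene body. Among all 28034 J76-only peaks on the autosomes and chromosome X, 2.88% had at least 3 other J76-only summits within 10 kb. This cut was not planned beforehand and matches the group at CD1A, so the share was not read as a test.

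CD1B, CD1C and CD1E had no peak in their bodies or at their ends in either line. CD1B, which in RefSeq also spans the smaller CD1C gene, runs from 158285405 to 158331531. Beyond its upper end J76 had a peak from 158333789 to 158334083 (fold 5.03, −log10 q 17.1), 2.26 kb from the gene, and a weaker one from 158334318 to 158334836 (fold 2.83). Beyond its lower end a J76 peak from 158274862 to 158275233 (fold 3.56) lay 10.2 kb away. CD1C was the member farthest from any peak. Its start at 158289923 lay 14862 bp from the nearest J76 summit and 59505 bp from the nearest 293T summit. CD1E, from 158353894 to 158357553, stood between a 293T peak 4.39 kb before it (158348812 to 158349503, fold 3.34, −log10 q 3.58) and a J76 peak 5.07 kb after it (158362627 to 158362826, fold 3.95, −log10 q 5.11). These were different sites, and both peaks were weak within their lists.

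The strongest J76-only peak of the region lay near its upper edge rather than at a CD1 gene. This peak, from 158398600 to 158399558 with a fold of 7.02 and a −log10 q of 40.4, covered most of OR10T2, an olfactory receptor gene, and a second from 158400791 to 158401228 had a fold of 5.07. They stood 41.0 kb and 43.2 kb past CD1E. Olfactory receptor genes resemble one another in sequence, and how uniquely reads can be placed at OR10T2 was not measured. The 10 J76-only peaks had a median fold of 3.99 and a median −log10 q of 9.24, and all J76-only peaks had 3.95 and 6.47. Their median width was 352 bp, against 304 bp for all J76-only peaks.

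Counted around each gene with its 50 kb flanks, CD1A had 5 J76-only and 0 293T-only peaks, CD1B 8 and 1, CD1C 7 and 0, and CD1E 5 and 1, while CD1D had 0 and 2. The flanks overlap, so a peak can count for several members, and the genes are not replicates. The group of 4 J76-only peaks at CD1A is also counted for CD1B and for CD1C. The 2 J76-only peaks at and beside OR10T2 are among those counted for CD1E. The median over the 5 genes was 5 J76-only and 1 293T-only peak, and over all 19974 protein-coding genes it was 1 and 2. More J76-only than 293T-only peaks were found at 4 of 5 CD1 genes and at 29.7% of all protein-coding genes, and fewer at CD1D and at 53.6% of all genes. A difference as large as the 7 of CD1B or of CD1C was reached by 0.931% of genes, as large as the 5 of CD1A by 2.87%, and as large as the 4 of CD1E by 5.49%. The difference of -2 at CD1D was reached or passed by 72.3%. CD1C had 0 peaks of 293T in its window, as did 3.13% of genes. Per 100 kb, the members ranged from 2.77 peaks at CD1D to 6.68 at CD1C in J76, where all genes had a median of 3.20. In 293T they ranged from 0 at CD1C to 4.61 at CD1D, where all genes had a median of 3.97.

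**Figure D2:**
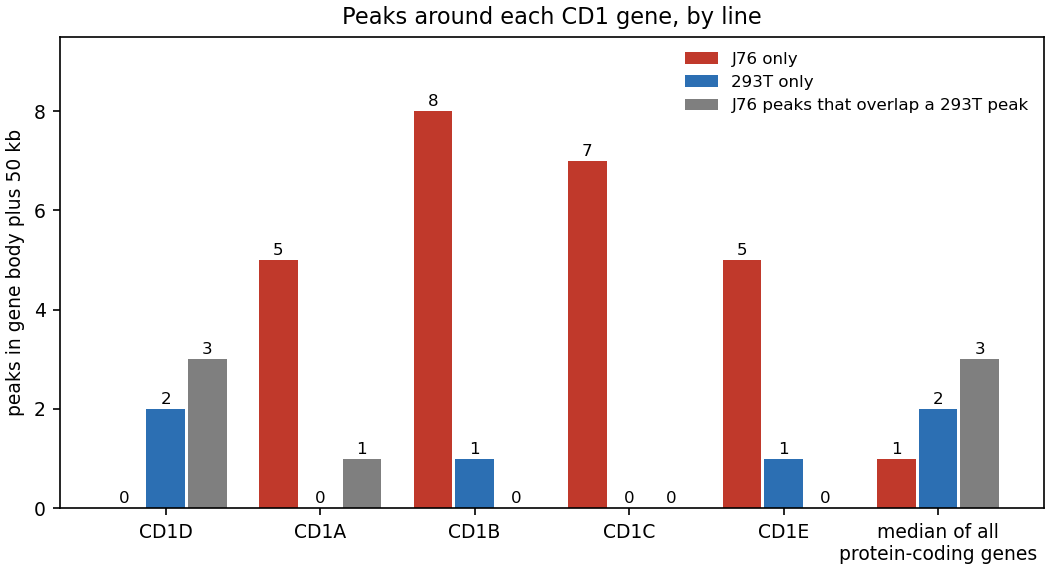
Number of peaks in the body and 50 kb flanks of each CD1 gene, split into J76-only, 293T-only and J76 peaks that overlap a 293T peak, with the median of all protein-coding genes at the right. J76-only peaks number 5 to 8 at CD1A, CD1B, CD1C and CD1E and 0 at CD1D, where 3 J76 peaks are shared.

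Long stretches without 293T peaks were the other side of this pattern. From 158204555 to 158348811 there was no 293T peak over 144 kb, which held 7 J76 peaks. After the weak peak before CD1E there was none for a further 146 kb, which held 4 J76 peaks, 3 of them within the region. This stretch runs past the region, and 93.6 kb of it, from 158401229 to 158494849, held no J76 peak either, a length reached by 13.8% of stretches between J76 peaks. Stretches between neighbouring 293T peaks were at least this long in 3.52% and 3.42% of cases, and their median was 16.5 kb. Between J76 peaks that lie in the region, the longest stretch without a J76 peak, from 158275234 to 158333788, was 58.6 kb and held the CD1B and CD1C genes. Of all stretches between J76 peaks 23.7% were as long. All these shares count stretches and not bases, and long stretches cover a larger share of the genome than of the count.

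Peaks at gene ends gave another picture of CD1D than peaks at starts. By a peak within 1 kb of either end of the gene as RefSeq draws it, CD1A was in J76 only, as were 3.94% of all genes, and CD1D was in 293T only, as were 9.09%. CD1B, CD1C and CD1E were in neither line, as were 26.3%. RefSeq starts were available for CD1A, CD1C, CD1D and CD1E. By a peak within 1 kb of such a start, CD1D was in both lines, as were 63.5% of 15812 genes, CD1A in J76 only, as were 3.35%, and CD1C and CD1E in neither, as were 24.9%. No member was in 293T only by this readout, as 8.27% of genes were. CD1D changed because its gene end at 158178030 lies below both starts, so that the J76 peak at the second start was not within 1 kb of a gene end. This readout by starts was chosen after seeing the data.

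The windows of equal length on either side had fewer J76 peaks than the CD1 region. Toward KIRREL1, which encodes an adhesion protein of the kidney filter, there were 7 J76 and 22 293T peaks, and all 7 J76 peaks overlapped a 293T peak. On the upper side, which begins in olfactory receptor genes, there were 2 J76 and 3 293T peaks. The nearest peaks outside the region were shared ones 2.74 kb (J76, fold 5.68) and 2.52 kb (293T, fold 7.75) below it, and above it the nearest were 87.3 kb (J76, fold 3.65) and 88.4 kb (293T, fold 3.34) away. In the 10 Mb around the region there were 368 J76 and 467 293T peaks (ratio 0.788). In the 5 Mb around it there were 178 and 206 (0.864). On the whole of chromosome 1 there were 5480 and 9648 (0.568), and in the whole lists 59631 and 85597. The 10 Mb and 5 Mb counts include the CD1 region with its 13 J76 and 6 293T peaks. In the 1 Mb around the region there were 23 and 32 peaks (ratio 0.719), also with the region included. In both adjoining windows 293T had more peaks than J76. The part of the surroundings in the result for the CD1 genes was not tested.

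**Figure D3:**
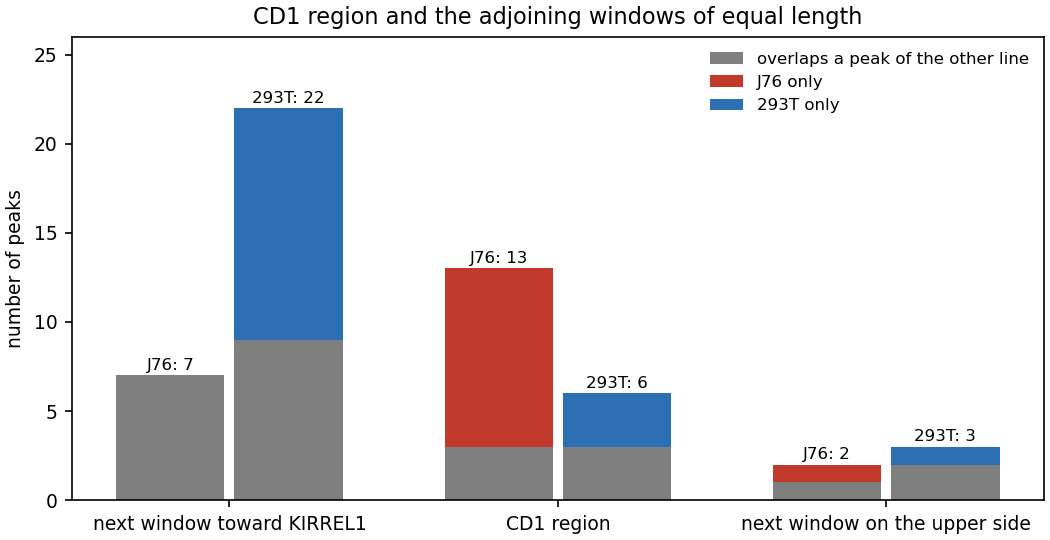
Number of peaks in the CD1 region and in the adjoining windows of the same length, J76 left and 293T right in each pair, split by overlap with a peak of the other line. The CD1 region has 13 J76 and 6 293T peaks, the window toward KIRREL1 7 and 22, and the window on the upper side 2 and 3.

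Genes that CD1 proteins work with mostly had peaks in both lines. Of 19 genes for the assembly of CD1 proteins and the handling of their lipids, 15 had a peak at a gene end in both lines, against 60.7% of all genes. They included GM2A, a lysosomal lipid transfer protein (fold 11.7 in J76 and 10.1 in 293T), PDIA3, a chaperone of class I heavy chains (7.80 and 13.1), and B2M, the partner chain of CD1 proteins, named after its values were seen (9.41 and 10.8). PDIA3 and B2M each have an end of another protein-coding gene within 2 kb of one of their ends. CTSL, a lysosomal protease, was in 293T only (10.6), as were 9.09% of all genes. APOE, CD74 and CTSS, also named after their values were seen, were in neither, as were 26.3% of all genes. Among 13 genes of MHC class I-like proteins, 8 were in both lines, close to the 60.7% of all genes. Among these 8 were MR1, which presents vitamin metabolites (9.69 and 7.93), and ULBP2, a ligand of the receptor NKG2D (8.52 and 10.2). HFE, an iron regulator (5.02), and RAET1E (4.58) were in J76 only (3.94% of all genes). ULBP3 (9.64) was in 293T only (9.09%), and AZGP1 and RAET1L were in neither (26.3%). By RefSeq starts RAET1E was in both lines and HFE in neither, and MICB was the gene in J76 only.

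Genes of the cortical thymocyte, the stage at which CD1A is present in the thymus, had end peaks in J76 only, in both lines or in neither. Of 12 such genes, a peak at a gene end was found in J76 only for 5, in both lines for 5, in neither for 2 (DNTT and CD8B) and in 293T only for 0. The shares of all genes were 3.94% in J76 only, 60.7% in both, 26.3% in neither and 9.09% in 293T only. The J76-only genes were THEMIS (6.10), ARPP21 (4.52), RAG2 of antigen receptor recombination (4.23), CCR9, a chemokine receptor of thymocytes (3.73), and PTCRA, the surrogate alpha chain of the pre-T cell receptor (3.55). RAG1 (9.24 in J76 and 8.24 in 293T) and the coreceptor gene CD8A (8.49 and 7.13) were in both. An end of another protein-coding gene lies within 2 kb of an end of RAG1, and the peaks were not assigned between them. By RefSeq starts, THEMIS and ARPP21 were in both lines as well. Of 12 factors of the T lineage, RUNX3 (6.28) and RUNX1 (3.87) were in J76 only and 7 in both, close to the 60.7% of all genes, while GATA3, TCF7 and ETS1 were in neither. Among those in both, TCF3 (7.30 and 10.2) and TCF12 (6.52 and 6.80) had the highest folds. By starts, all 10 factors with an entry, GATA3 and TCF7 included, were in both lines. The median J76-only minus 293T-only count around a gene was 2 for the cortical thymocyte genes and 1.5 for the T lineage factors. It was 2 for the class I-like genes and -1 for the lipid and assembly genes, against -1 for all genes. Flanks overlap within these lists too, so a peak can count for several genes. RAET1E, RAET1G, ULBP2, ULBP1 and RAET1L, with differences of 0, 4, 5, 6 and 3, are neighbours on chromosome 6. RAG1 and RAG2 are neighbours as well, as are CD8A and CD8B. The medians were therefore not read as a result about the lists.

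The marker genes at their ends mostly followed the labels of the lines. Of 9 T cell markers, 7 were in J76 only (3.94% of all genes), led by CD3E (9.09), CD2 (8.29), CD28 (7.99) and LCK (5.08). CD3D was in both (3.75 and 3.55) and CD5 in neither. By RefSeq starts, 4 of the 5 with an entry were in J76 only, CD3D among them, and CD2 was in neither. Of 6 markers of adherent epithelial-like cells, 5 were in 293T only (9.09% of all genes), led by TJP1 (8.13), CCN2 (8.05), and KRT8 and KRT18, which share a peak (6.25), and CDH2 was in both (5.48 and 4.63). By starts, 2 of the 5 with an entry, TJP1 and CCN2, were in 293T only, CAV1 and CDH2 were in both and KRT8 was in neither. Dendritic cells and B cells can carry CD1 proteins too. Of 7 dendritic or monocyte markers, 0 were in J76 only, ITGAX (5.99) and CSF1R (3.13) were in 293T only, FLT3 was in both (9.77 and 9.93), and CD207, FCER1A, CLEC10A and CD14 were in neither (26.3% of all genes). CD3D and CSF1R, like KRT8 and KRT18, have an end of another protein-coding gene within 2 kb of one of their ends. The same holds for CD3G and ZAP70, which are among the T cell markers in J76 only. It also holds for CD207 and the B cell marker CD79A, which were in neither line. Of 6 B cell markers, BANK1 (5.05) was in J76 only and the other 5 were in neither.

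**Figure D4:**
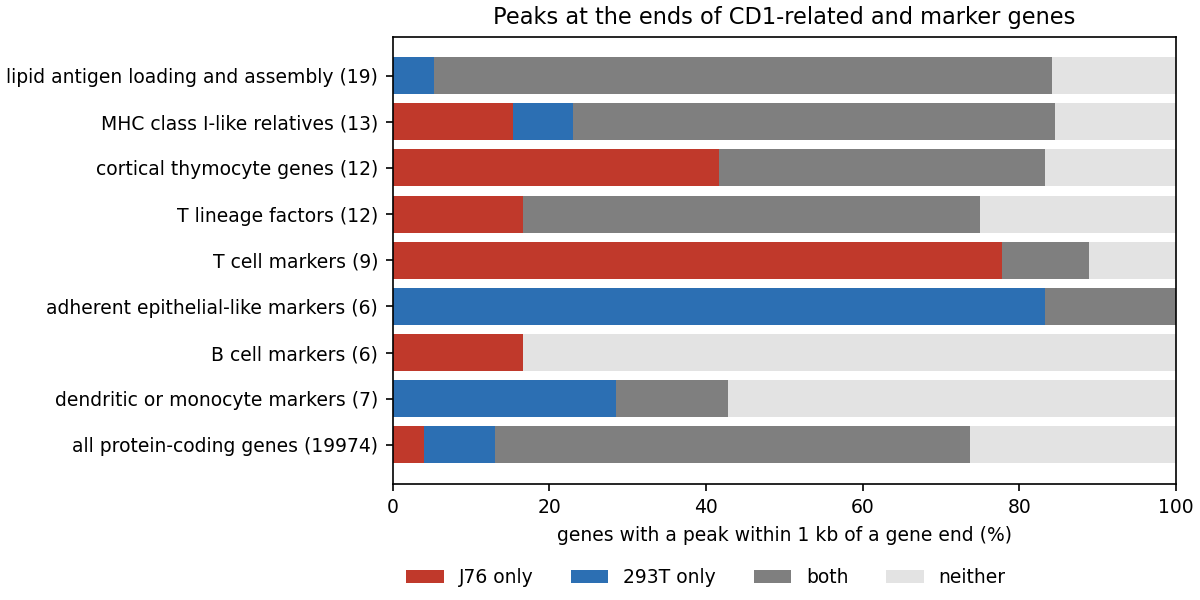
Share of genes, in percent, with a peak within 1 kb of a gene end in J76 only, in 293T only, in both lines or in neither, for each list (number of genes in brackets) and for all protein-coding genes at the bottom. T cell markers have 7 of 9 genes in J76 only, adherent markers 5 of 6 in 293T only, and lipid and assembly genes 15 of 19 in both.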

How the data were processed

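ATAC-seq peak lists of J76 and 293T, 1 library each, were used as the authors deposited them. The submitters' processing notes name Bowtie2 and MACS2, and the sources used here give neither versions or settings nor the genome build. The deposited fold column is a linear ratio over background at the summit, the next columns hold −log10 p-values and q-values, and the deposited score is the −log10 q times 10 without its decimals in 100% of J76 and 85594 of 85597 293T peaks. All 92 and 77 unplaced contigs carry names of the form GRCh38 uses, and 44.6% (J76) and 50% (293T) of RefSeq start windows were overlapped, against 2.58% (J76) and 3.21% (293T) after a shift of 10 kb, so positions are printed as GRCh38, counted from 1.

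Peaks were assigned with Python 3.11.15, numpy 2.4.6 and pandas 2.3.3, with functions tested on simulated data. Peaks of the 2 lists that had 1 bp or more in common counted as shared. Genes, starts and sequences came from RefSeq tables of GRCh38.p14, and genes on the autosomes and chromosome X formed the background. Shares of overlapping peaks, totals and medians of J76-only peaks, and stretches between peaks were taken over the same chromosomes. Exact binomial intervals were computed with scipy 1.17.1. Depth is unknown, and no test between lines was possible. Genes named were the 5 members, their neighbours and, per list, up to 4 genes with an end peak in 1 line only and 2 in both, highest fold first; others named were chosen after their values were seen. The members and lists were chosen with earlier results of these data known. Alternatives were other −log10 q thresholds, lists of equal length, other flanks, other windows and other rules of overlap.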

Additional observations from a re-analysis of the deposited data

How the results depend on the processing

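J76 had more peaks in the CD1 region than 293T under each of the 6 alternatives of threshold, list length and flank that were run. At a minimum −log10 q of 10 the counts were 8 in J76 and 3 in 293T, with 6 J76-only and 1 293T-only peaks. At a minimum −log10 q of 5, and with lists limited to the 59631 strongest peaks, 293T-only peaks numbered 1 in place of 3. Without flanks there were 4 J76 and 2 293T peaks, with 3 J76-only, 1 293T-only and 1 shared in each line. With 10 kb flanks there were 8 J76 peaks, and 1 was shared in each line. With 100 kb flanks there were 13 293T peaks (17 in J76), 6 of them 293T-only, and 7 were shared in each line. Members with a peak at a gene end in J76 numbered 2 in place of 1 with a window of 2.5 kb, which takes in the peak beyond CD1B, and 2 by RefSeq starts, a readout added after seeing the data, which takes in CD1D. Of 56 alternative values 35 stayed within 1.5 times the reported count, including those by a reciprocal overlap of 50% and by summits within 250 bp. No paired analysis was possible because there was 1 library per line, and no library could be left out. Depth is unknown, so the weaker peaks, such as those beside CD1E, limit what can be said of single sites.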

Other observations

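Beyond the CD1 region, the genes on either side had different counts of peaks. OR10K2, the next gene above the region, had 2 J76 and 0 293T peaks in its flanks, both of them the J76 peaks at and beside OR10T2. Below the region, KIRREL1 had 8 J76 and 22 293T peaks in its body and flanks, of which 0 were J76-only and 12 were 293T-only. The KIRREL1 flank reaches into the CD1 region, so the shared peaks within LOC105371460 are counted here as well. ELL2, the gene from which the pseudogene ELL2P1 beside CD1D derives, lies on chromosome 5 and had a peak at a gene end in both lines, with a fold of 8.37 in J76 and 5.45 in 293T.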
